A study of Mus musculus with 24 samples.

Results

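The genes described here encode cold-inducible and RNA processing proteins. They were chosen by gene symbol alone, as the probe sets listed with 1 gene whose symbol begins with Hnrnp, Srsf, Snrp, Rbm or Ddx, together with Cirbp, Tra2a and Tra2b. The rule took 216 of the 22690 probe sets on the array, and these belong to 92 genes. A probe set is a group of short probes on the array that is read as 1 intensity. The members fall into Hnrnp (50 probe sets, 18 genes), SR proteins, which are the Srsf genes with Tra2a and Tra2b (31 probe sets, 11 genes), Snrp (15 probe sets, 8 genes), Rbm (60 probe sets, 26 genes), Ddx (59 probe sets, 28 genes) and Cirbp (1 probe set). Rbm3, the other well-known cold-inducible gene, is measured by a probe set that is also listed for the pseudogene Rbm3-ps. It is therefore not a member and is described beside Cirbp.

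RNA was measured in the gastrocnemius and plantaris muscles of 6-week-old male mice, with 4 mice in each of 6 groups and 1 array per mouse. Wild type mice were of the strain B6129PF2/J. The Nfkb1-/- mice (B6;129P2-Nfkb1tm1Bal/J) lack p50, a subunit of the transcription factor NF-κB, in every cell, and the Bcl3-/- mice (FVB;129P2-Bcl3tm1Ver/J) lack Bcl-3, a co-activator that binds p50, in every cell. After 3 days of acclimation, mice of each genotype either stayed weight bearing (WB) or had the hind limbs lifted off the ground by the tail for 6 days (hind limb unloading, HU), which makes these muscles atrophy in wild type mice. The study asked which genes change with unloading in wild type mice and not in the knockouts.

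The values are intensities on a linear scale, and the number of arrays limits their precision. Array medians were 11.6 to 11.9 on the 16 wild type and Nfkb1-/- arrays and 81.1 to 86.8 on the 8 Bcl3-/- arrays. The Bcl3-/- mice thus differ from the others in array scale, strain and genotype at once, which cannot be told apart, so levels were never compared between those arrays and the others, only changes with unloading. The deletions could not be checked, since Nfkb1 has no listed probe set and that of Bcl3 was read on both scales. Markers of mature fast and slow muscle fibre had summed intensities of 65354 to 72319 on the wild type and Nfkb1-/- arrays, and each of the 15 markers averaged 20 or more in every group. The sums were 68989 to 70593 in WB and 68924 to 72319 in HU wild type mice. In Nfkb1-/- they were 69155 to 70770 and 65354 to 68047, with no overlap. In whole muscle, fewer cells of a type and less RNA per cell cannot be told apart.

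Splicing removes introns from new transcripts. It is carried out by the spliceosome, whose small nuclear ribonucleoproteins are built on the Sm proteins that many Snrp genes encode, while SR proteins and hnRNPs bind the transcript and favour or oppose the use of individual exons. DEAD-box (Ddx) proteins are RNA helicases that remodel RNA and RNA-protein complexes in splicing, ribosome assembly and translation, and Rbm is a name shared by proteins that hold an RNA recognition motif and otherwise differ in role. CIRP, the product of Cirbp, and RBM3 are small RNA binding proteins whose levels rise when mammalian cells are cooled mildly, and both are also made in other forms of stress.

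The sequence upstream of Cirbp is shown because Cirbp had the largest change of any member in wild type muscle, and because an octamer, TCCCCGCC, has been described as an element of its promoter that responds to mild cold. The line gives the 250 bases before the start of the RefSeq gene, at chr10:80167589-80167838 on the + strand of GRCm38.p6, 5′ to 3′, with the octamer in capitals.
Cirbp: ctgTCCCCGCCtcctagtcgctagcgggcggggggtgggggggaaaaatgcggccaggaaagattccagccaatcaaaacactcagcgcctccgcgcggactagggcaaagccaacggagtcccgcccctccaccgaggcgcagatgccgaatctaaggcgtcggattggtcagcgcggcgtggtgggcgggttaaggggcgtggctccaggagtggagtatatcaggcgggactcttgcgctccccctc
The octamer lies 247 to 240 bases before the start. In windows from 250 bases before to 50 after each start, searched on both strands, it was found for 7 of the 85 member genes with a window in the RefSeq table (8.24%) and for 1672 of all 27025 genes (6.19%). The other 6 member genes were Rbms1, Rbm19, Hnrnpf, Rbmxl1, Snrpc and Rbmx2. The κB consensus, the binding sequence of NF-κB, was found for 4 of the 85 (4.71%), namely Rbm12, Rbm39, Hnrnpr and Rbm19, and for 1388 of all genes (5.14%). A match describes the letters of a window only.

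Only probe sets with an intensity of 20 or more on at least 4 of the 24 arrays were tested, which were 19294 probe sets in all and 204 of the 216 members (89 genes). Changes are differences of mean log2 intensity, HU minus WB, and are called where the Benjamini-Hochberg adjusted p of a limma fit over all tested probe sets was under 0.05. The fit pooled the spread of a probe set over all 24 arrays. The SE of its change is therefore the same in each genotype and does not measure the spread within that genotype. The 12 members not tested were 2 probe sets of Rbm47 and 1 each of Ddx19b, Ddx4, Ddx47, Ddx60, Hnrnpab, Rbm12, Rbm14, Rbm25, Rbm5 and Rbmx. Of the 204, 43 passed only through the brighter Bcl3-/- arrays, and 161 (75 genes) reached 20 on at least 4 wild type or Nfkb1-/- arrays. Probe sets of 1 gene are not independent of each other, and 46 of the tested members carry a suffix (_x_at or _s_at) that marks probes able to bind several transcripts.

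With unloading, more members were called higher than lower in each genotype. In wild type muscle 16 members (12 genes) were called higher, 7.84% of those tested against 2.31% of all probe sets, and 3 were called lower, 1.47% against 1.66%. The count of 16 was 9 without HU replicate 3 and 10 without WB replicate 1, 3 or 4. The count of 3 was 1 without HU replicate 3 or 4 or WB replicate 1 or 2.

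In Nfkb1-/- muscle 22 members (16 genes) were called higher, 10.8% against 4.79% of all probe sets, and 6 (3 genes) were called lower, 2.94% against 6.59%. The 22 became 12 without HU replicate 2 (5.88% against 2.7% of all probe sets) and 14 without HU replicate 3 (6.86% against 3.03%). In Bcl3-/- muscle 27 members (18 genes) were called higher, 13.2% against 7.59%, and 2 were called lower, 0.98% against 2.81%. The 27 became 17 without HU replicate 1 (8.33% against 4.01% of all probe sets) and 16 without HU replicate 3 (7.84% against 4.61%). The 2 became 1 without WB replicate 2 or HU replicate 1, 3 or 4. That was 0.49%, against 1.85%, 1.29%, 1.65% and 2.57% of all probe sets. When the Bcl3-/- and other arrays were quantile normalized together, the split in Bcl3-/- was 24 higher and 5 lower. These were 11.8% and 2.45%, against 6.9% and 4.79% of all probe sets.

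The median change of the 204 members was 0.14 in wild type, where the median of all 19294 probe sets was -0.01. It was 0.08 against -0.00 in Nfkb1-/- and 0.12 against 0.02 in Bcl3-/-. Increases that did not pass the test made up most of this: 153, 132 and 158 of the 204 had a change above 0. These were 75%, 64.7% and 77.5% of the members, against 48%, 49.7% and 53.6% of all probe sets. Among the 161 members that reached the minimum on the wild type or Nfkb1-/- arrays, 9.32% were called higher in wild type (3.99% of all 9722 such probe sets), 13.0% in the Nfkb1-/- mice (7.43%) and 16.1% in the Bcl3-/- mice (12.6%). In Bcl3-/- the share of members was thus nearest to that of all such probe sets. Changes above 0 made up 79.5%, 63.4% and 79.5% of the 161 members, against 56.2%, 47% and 66.8% of the 9722. In Bcl3-/- the median change was 0.14 for these members and 0.10 for all such probe sets.

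Counts of members whose 4 HU arrays all lay above their 4 WB arrays went the same way. There were 41 such members in wild type, where 5.86% of all probe sets had such arrays, 26 in Nfkb1-/- (7.71%) and 40 in Bcl3-/- (11.4%). Members with all HU arrays below all WB arrays numbered 2 in wild type (4.89% of all probe sets), 13 in Nfkb1-/- (10.9%) and 6 in Bcl3-/- (4.07%). These counts are of the 204 members, and the shares are of all 19294 tested probe sets, with no such count made among the 9722.

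**Figure D1:**
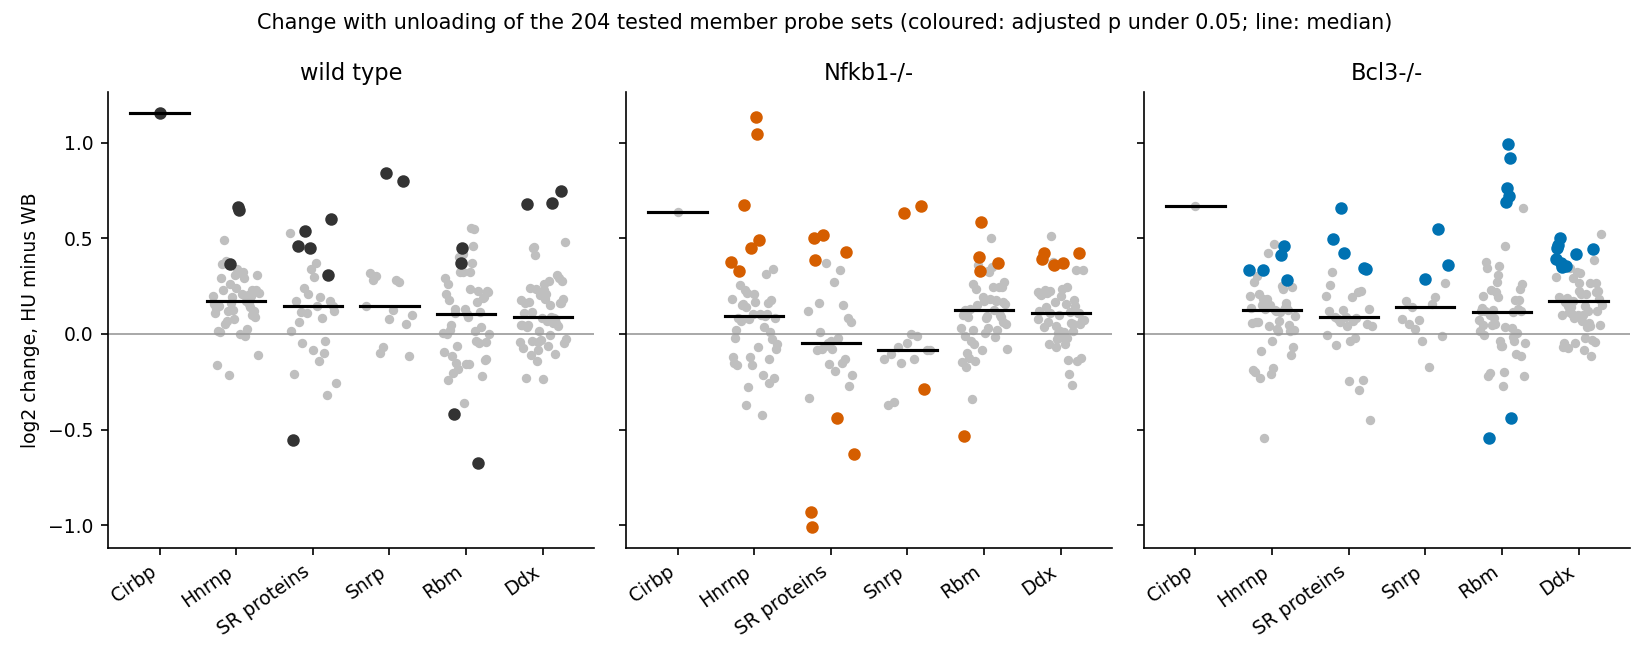
The log2 change with unloading (HU minus WB) of each of the 204 tested members is plotted by family for wild type, Nfkb1-/- and Bcl3-/- muscle. Points are probe sets, coloured where the limma adjusted p was under 0.05, and the line is the family's median. The medians lie above 0 in every family and genotype except for SR proteins (-0.05) and Snrp (-0.08) in Nfkb1-/-.

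A total of 59 members (38 genes), 28.9% of those tested against 21.0% of all probe sets, were called in at least 1 genotype, 49 of them higher and 10 lower. In all 3 genotypes 5 were called higher, 2.45% against 0.389% of all probe sets. They were Srsf5, Srsf6 (1416721_s_at) and Srsf11 (1452371_at), which encode SR proteins, Snrpd3 (1449629_s_at), which encodes the Sm protein SmD3, and Ddx5 (1419653_a_at), which encodes the helicase p68. Wild type and Nfkb1-/- shared 9 members called higher (4.41% against 0.762% of all probe sets), wild type and Bcl3-/- shared 5 (2.45% against 0.834%), and the knockouts shared 7 (3.43% against 1.57%). Of all 19294 probe sets, 9722 reached the minimum on the wild type or Nfkb1-/- arrays, against 161 of the 204 members. These shares were not computed among such probe sets alone, so the part of the filter in the differences was not tested. Srsf3 (1416151_at) was the only member called lower in more than 1 genotype, in wild type and Nfkb1-/-.

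Cirbp rose 2.23-fold in wild type muscle. Its intensities were 37.5, 28.2, 41.0 and 27.1 in the 4 WB mice and 60.2, 43.0, 104 and 108 in the 4 HU mice. The groups did not overlap, though HU replicate 2, at 43.0, was close to the highest WB mouse. The log2 change was 1.16 ± 0.22 (SE, limma adjusted p = 0.00403), and the call was kept without any 1 of the 8 arrays (adjusted p up to 0.022).

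In Nfkb1-/- muscle the Cirbp intensities were 30.3, 28.3, 27.3 and 33.6 in WB and 30.6, 53.0, 47.9 and 58.9 in HU mice. HU replicate 1 lay within the WB range and the other 3 above it. The log2 change of 0.64 missed the threshold (limma adjusted p = 0.0652). In Bcl3-/- muscle they were 291, 267, 317 and 312 in WB and 534, 404, 473 and 478 in HU mice. Here the groups did not overlap, and the log2 change of 0.67 had a limma adjusted p of 0.0544.

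The wild type response of Cirbp exceeded that of Nfkb1-/- by 0.52 ± 0.31 (SE) on the log2 scale (limma adjusted p = 0.52) and that of Bcl3-/- by 0.49 (adjusted p = 0.525). Both differences use the same wild type arrays. Neither passed the test, so Cirbp was called in 1 genotype without a detectable difference from the others. The Nfkb1-/- change was called without HU replicate 1 (0.83, adjusted p = 0.0145). Which genotypes were called also turned on the fit: when only the groups compared were fitted, the adjusted p was 0.0644 for wild type, 0.0379 for Nfkb1-/- and 0.0089 for Bcl3-/-, and with array weights both knockout changes were called (0.0169 and 0.0402).

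The probe set listed for Rbm3 and Rbm3-ps read 229, 189, 204 and 199 in WB and 529, 281, 542 and 532 in HU wild type mice. All HU mice lay above all WB mice, and HU replicate 2 was again the lowest of the 4. The log2 change was 1.15 ± 0.18 (SE, limma adjusted p = 0.000727). In Nfkb1-/- the values went from 204, 188, 180 and 188 to 224, 312, 354 and 312, with no overlap and a log2 change of 0.64 (limma adjusted p = 0.0204). HU replicate 1 was the lowest of these 4, as it was for Cirbp.

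In Bcl3-/- the probe set read 873, 1219, 961 and 877 in WB and 1627, 1139, 1445 and 1901 in HU mice, and the groups overlapped through 1 mouse of each. The log2 change of 0.63 passed the test (limma adjusted p = 0.0273). The wild type response exceeded those of Nfkb1-/- and Bcl3-/- by 0.51 and 0.53 (limma adjusted p = 0.422 and 0.366). Signal of the gene and of the pseudogene cannot be separated in this probe set.

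**Figure D2:**
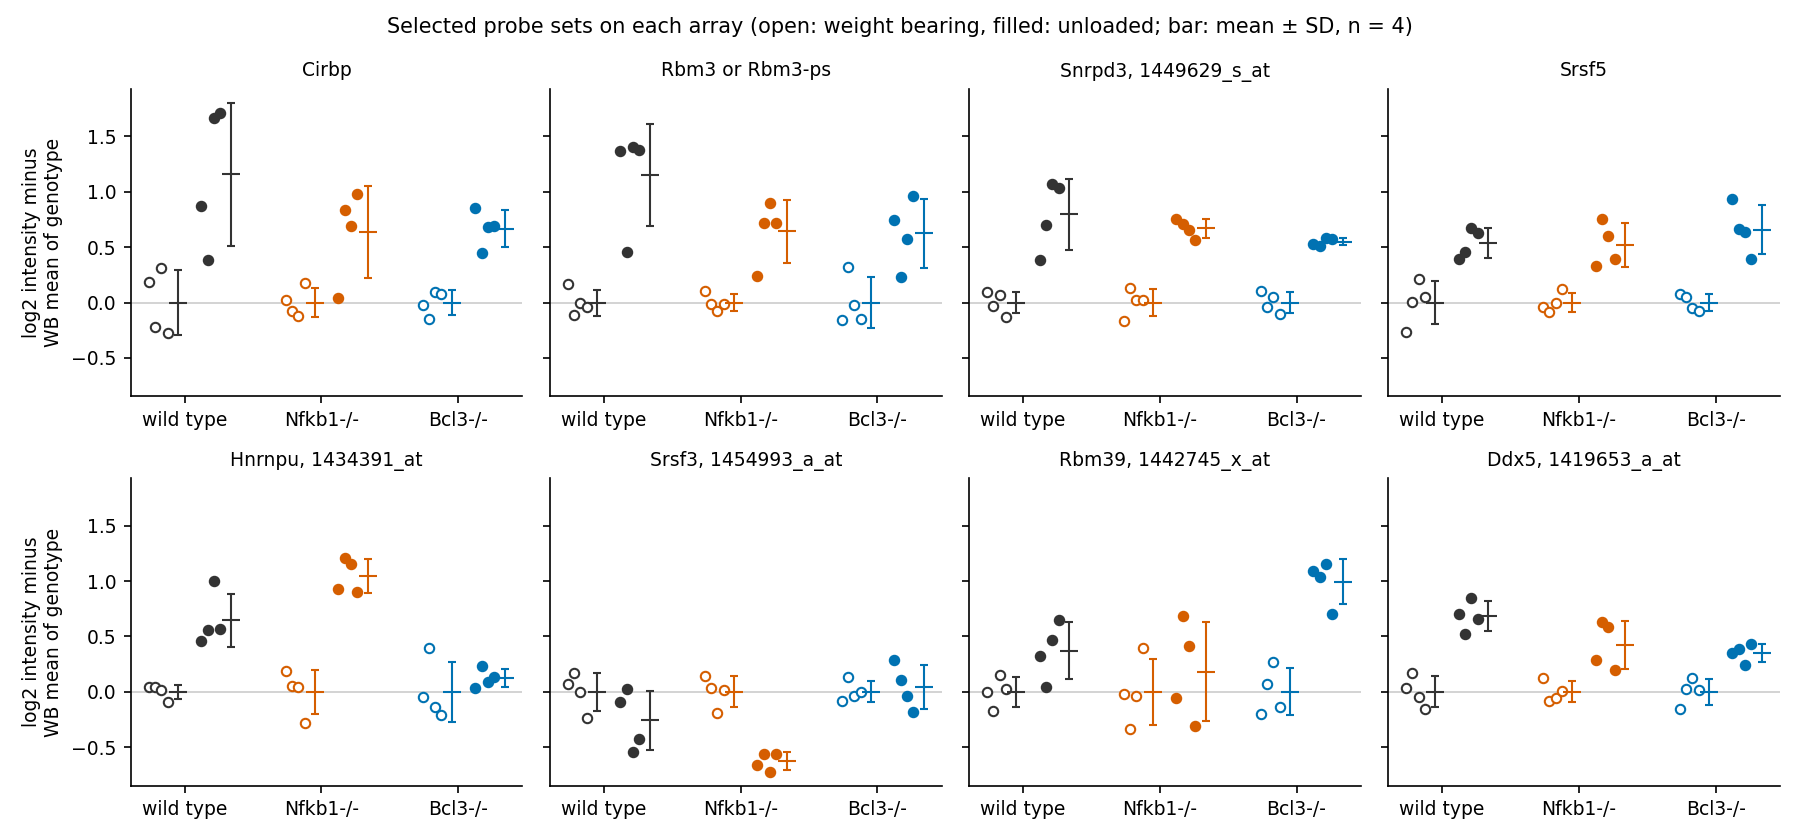
Each panel plots 1 probe set (Cirbp, Rbm3 or Rbm3-ps, Snrpd3, Srsf5, Hnrnpu, Srsf3, Rbm39 and Ddx5) as log2 intensity minus the mean of the WB mice of the same genotype. Snrpd3 and Ddx5 are shown at their lowest limma adjusted p in wild type, Hnrnpu in Nfkb1-/- and Rbm39 in Bcl3-/-. Srsf3 is shown at the probe set called by an unequal-variance test per probe set with Benjamini-Hochberg adjustment. Other probe sets of these genes differ in call. Points are arrays, open for WB and filled for HU, and bars are the mean ± SD (n = 4). Cirbp and Rbm3 have their largest mean change in wild type (1.16 and 1.15), Rbm39 in Bcl3-/- (0.99), and Srsf3 is lower with unloading in Nfkb1-/- (-0.63).

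Among the 49 tested Hnrnp probe sets, 3 were called higher in wild type, 7 in Nfkb1-/- mice and 5 in Bcl3-/- mice, and none was called lower in any genotype (0, 5 and 2 were lower at an unadjusted limma p under 0.05, and 0 by an unequal-variance test per probe set with Benjamini-Hochberg adjustment, called the methods' test). The methods' test called 0, 238 and 16 of all 19294 probe sets lower. With so few calls, its 0 cannot show that no Hnrnp member fell. The shares called higher were 6.12%, 14.3% and 10.2%, against 2.31%, 4.79% and 7.59% of all tested probe sets. Of the 49, 44 reached the minimum on wild type or Nfkb1-/- arrays. Among all 9722 such probe sets the shares were 3.99%, 7.43% and 12.6%, so the Bcl3-/- share of Hnrnp was the lower one. Family shares were not computed among such probe sets alone. At an unadjusted limma p under 0.05, 1572, 2548 and 1755 of all 19294 probe sets were lower. The family medians were 0.17, 0.10 and 0.13. The calls in wild type were 2 probe sets of Hnrnpu and 1 of Hnrnpm. Hnrnpu encodes hnRNP U, an abundant nuclear protein that binds RNA and chromatin.

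Hnrnpu (1434391_at) read 15.2, 15.2, 14.9 and 13.8 in WB and 20.4, 21.7, 29.5 and 21.9 in HU wild type mice. In Nfkb1-/- it read 18.1, 16.5, 16.5 and 13.2 in WB and 30.4, 36.9, 35.5 and 29.8 in HU mice. The HU mice lay above the WB mice in both genotypes. The log2 change was 0.65 ± 0.13 in wild type (limma adjusted p = 0.00438) and 1.05 ± 0.13 in Nfkb1-/- (limma adjusted p = 3.57e-05), the smallest adjusted p of any member. In Bcl3-/- the values were 111, 151, 104 and 99.4 in WB and 118, 135, 122 and 125 in HU mice, which overlapped (log2 change 0.12, limma adjusted p = 0.578).

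A further Hnrnpu probe set (1434390_at) changed by 0.67 in wild type (limma adjusted p = 0.019, lost without HU replicate 3 or WB replicate 1, up to 0.0861) and by 1.14 in Nfkb1-/- (adjusted p = 0.000134). Of the 5 probe sets of Hnrnpu, 2 were called in wild type, 3 in Nfkb1-/- mice and 1 in Bcl3-/- mice, and all 5 changes were above 0 in each genotype. The probe set called in Bcl3-/- (1450849_at) was not called in the others. Its change of 0.46 (limma adjusted p = 0.0126) was not called without HU replicate 3 (adjusted p = 0.0532).

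Hnrnpdl, which encodes a splicing regulator related to hnRNP D, was called higher in Nfkb1-/- only, at 2 of 6 probe sets (log2 changes 0.68 and 0.45). Its highest change in wild type was 0.38 (limma adjusted p = 0.176). Hnrnpab, which encodes an hnRNP of the A/B type, was called higher in Bcl3-/- at 2 of 6 probe sets. The one with the larger change (1448144_at) read 136, 130, 167 and 163 in WB and 224, 186, 187 and 195 in HU Bcl3-/- mice. These groups did not overlap, and the log2 change was 0.41 ± 0.10 (SE, limma adjusted p = 0.00914). Another (1426114_at) had a larger change in the other direction in Bcl3-/-, which was not called (-0.54, adjusted p = 0.0852), and its groups overlapped. In Nfkb1-/- all 6 Hnrnpab probe sets had a change below 0 (-0.37 to -0.12), and none was called.

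Among the 31 tested SR protein probe sets, 5 were called higher and 1 lower in wild type, 4 higher and 4 lower in Nfkb1-/-, and 5 higher and 0 lower in Bcl3-/- (4 lower at an unadjusted limma p under 0.05, and 0 by the methods' test). In Bcl3-/- the methods' test called 16 of all 19294 probe sets lower, so its 0 cannot show that no SR member fell. The shares called higher were 16.1%, 12.9% and 16.1%, against 2.31%, 4.79% and 7.59% of all tested probe sets. Those called lower were 3.23%, 12.9% and 0%, against 1.66%, 6.59% and 2.81%. Of the 31, 29 reached the minimum on wild type or Nfkb1-/- arrays. Among all 9722 such probe sets 3.99%, 7.43% and 12.6% were called higher and 2.63%, 11% and 3.67% lower. The medians were 0.14, -0.05 and 0.09. Srsf5, Srsf6 and Srsf11 were higher in each genotype, while Srsf3 was lower in Nfkb1-/-.

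Srsf5, which encodes SRp40, has 1 probe set. It read 254, 307, 353 and 316 in WB and 402, 419, 488 and 474 in HU wild type mice. The Nfkb1-/- mice read 312, 303, 320 and 349 in WB and 402, 542, 485 and 420 in HU. The Bcl3-/- mice read 1534, 1510, 1411 and 1384 in WB and 2779, 2317, 2265 and 1920 in HU. In each genotype all HU mice lay above all WB mice, with log2 changes of 0.54, 0.52 and 0.66 (limma adjusted p = 0.00763, 0.00398 and 0.00101). Each call was kept without any 1 array (adjusted p up to 0.0356).

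Srsf6, which encodes SRp55, rose at 1416721_s_at from 145, 161, 169 and 137 to 186, 220, 229 and 206 in wild type, with no overlap. The log2 change was 0.46 there, 0.39 in Nfkb1-/- and 0.49 in Bcl3-/- (limma adjusted p = 0.0141, 0.0186 and 0.00495). The wild type call was lost without HU replicate 3 (adjusted p = 0.0569). The Nfkb1-/- call was lost without HU replicate 2 or 3 or WB replicate 2 or 3 (up to 0.0687). Another probe set of Srsf6 (1416720_at) rose in Nfkb1-/- (0.50, limma adjusted p = 0.00418), and the last of its 3 probe sets had changes below 0 in all 3 genotypes, as low as -0.30 in Bcl3-/-. Srsf11, which encodes the SR-related protein p54, changed at 1452371_at by 0.31, 0.43 and 0.35 (limma adjusted p = 0.0398, 0.00182 and 0.0116).

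Srsf3, which encodes SRp20, the smallest SR protein, was called lower at 4 of 6 probe sets in Nfkb1-/-. The probe set 1454993_a_at read 63.6, 58.8, 50.5 and 58.3 in WB and 36.4, 39.1, 34.9 and 39.0 in HU Nfkb1-/- mice. All HU mice lay well below all WB mice, and the log2 change was -0.63 ± 0.12 (SE, limma adjusted p = 0.00134). The wild type mice read 56.0, 60.2, 53.2 and 45.4 in WB and 50.3, 54.2, 36.7 and 39.9 in HU, which overlapped (-0.26, adjusted p = 0.246). The Bcl3-/- mice read 221, 258, 228 and 234 in WB and 286, 253, 229 and 207 in HU, which also overlapped (0.04).

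The largest decrease of Srsf3 was at 1416152_a_at in Nfkb1-/-, from 28.5, 29.2, 19.6 and 27.3 to 14.5, 11.9, 11.5 and 13.6 (log2 change -1.01 ± 0.19, limma adjusted p = 0.00106). WB replicate 3 was the lowest of its group and still lay above every HU mouse. A further probe set (1416151_at) fell in Nfkb1-/- (-0.93, adjusted p = 0.000197) and in wild type (-0.55, adjusted p = 0.0235), where the groups overlapped. That wild type call was lost without HU replicate 3 or 4 or WB replicate 1 or 2 (up to 0.0937). The other Srsf3 probe sets were not called in Nfkb1-/-, where 1416150_a_at changed by -0.34 (adjusted p = 0.0757) and 1438215_at by 0.34 (adjusted p = 0.222). No probe set of Srsf3 was called in Bcl3-/-, where the changes ran from -0.02 to 0.26.

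Srsf2, which encodes SC35, was called at 1 of 4 probe sets in wild type (1452439_s_at). It read 30.9, 55.4, 45.2 and 35.4 in WB and 74.9, 66.4, 53.9 and 54.0 in HU wild type mice. WB replicate 2 lay above 2 of the HU mice, so the groups overlapped, and the log2 change of 0.60 (limma adjusted p = 0.0206) was lost without HU replicate 1 or WB replicate 1 or 4 (up to 0.0838). In Nfkb1-/- it read 35.1, 32.0, 32.4 and 33.7 in WB and 27.6, 31.0, 29.3 and 23.0 in HU mice, all lower than the WB mice, with a change of -0.27 that was not called (adjusted p = 0.27). At 1415807_s_at, the probe set in the study's list, Srsf2 read 28.9, 39.9, 43.5 and 39.8 in WB and 59.7, 57.2, 50.9 and 50.0 in HU wild type mice. These groups did not overlap, and the change of 0.53 missed the threshold (adjusted p = 0.061).

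Tra2b, which encodes an SR-like activator of exon inclusion, read 108, 109, 110 and 96.4 in WB and 172, 153, 131 and 127 in HU wild type mice. The groups did not overlap, and the log2 change at this probe set was 0.45 (limma adjusted p = 0.0343). The call was kept only without HU replicate 3 or 4. It was lost without HU replicate 1 or 2 or any of WB replicates 1, 2, 3 and 4 (adjusted p up to 0.123). The changes in Nfkb1-/- and Bcl3-/- were -0.05 and 0.09. Tra2a, its close relative, had changes of 0.12, -0.21 and -0.45, none of them called.

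Among the 15 tested Snrp probe sets, 2 were called higher in wild type, both of Snrpd3. In Nfkb1-/- 2 were called higher, again both of Snrpd3, and 1 lower. In Bcl3-/- 3 were called higher, 1 of Snrpd3 and 2 of Snrpb2, which encodes the U2 snRNP protein B″. The shares called higher were 13.3%, 13.3% and 20%, against 2.31%, 4.79% and 7.59% of all tested probe sets. The share called lower in Nfkb1-/- was 6.67%, against 6.59%. Of the 15, 13 reached the minimum on wild type or Nfkb1-/- arrays. Among all 9722 such probe sets 3.99%, 7.43% and 12.6% were called higher, and 11% lower in Nfkb1-/-. In Nfkb1-/- the called probe sets of Snrpd3 were the only 2 of the 15 with a change above 0. The family median there was -0.08, against 0.15 in wild type and 0.14 in Bcl3-/-.

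Snrpd3 (1449629_s_at) read 86.1, 79.1, 84.4 and 74.0 in WB and 106, 131, 170 and 165 in HU wild type mice. It went from 66.3, 81.4, 75.7 and 75.5 to 126, 121, 117 and 110 in Nfkb1-/-. It went from 486, 438, 466 and 420 to 653, 644, 676 and 671 in Bcl3-/-. No groups overlapped, and the HU mice of both knockouts lay close together. The log2 changes were 0.80, 0.67 and 0.55, each ± 0.11 (SE, limma adjusted p = 0.000161, 0.000471 and 0.00307), and each call was kept without any 1 array.

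The probe set 1422885_at of Snrpd3 read 28.7, 26.6, 32.4 and 33.7 in WB and 44.6, 47.6, 62.5 and 65.2 in HU wild type mice (log2 change 0.84 ± 0.12, limma adjusted p = 0.000323). In Nfkb1-/- it read 28.4, 34.7, 30.7 and 25.2 in WB and 45.9, 48.2, 41.5 and 48.3 in HU mice (0.63, adjusted p = 0.00149). In both genotypes the HU mice lay above the WB mice. In Bcl3-/- it read 254, 208, 240 and 198 in WB and 203, 228, 237 and 209 in HU mice, which overlapped throughout (-0.04, adjusted p = 0.89).

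The third Snrpd3 probe set (1422884_at) was not called in any genotype, with log2 changes of -0.07, -0.15 and 0.07. The 3 probe sets of this gene therefore gave 3 patterns: higher in all genotypes, higher in wild type and Nfkb1-/- only, and no call. Snrpe, which encodes the Sm protein SmE, fell in Nfkb1-/- from 239, 246, 255 and 257 to 200, 226, 222 and 174 with no overlap (-0.29, limma adjusted p = 0.0333). That call was kept only without HU replicate 2 or 3. It was lost without HU replicate 1 or 4 or any of WB replicates 1, 2, 3 and 4 (up to 0.125).

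Snrpb2 rose in Bcl3-/- at 1452422_a_at from 277, 281, 283 and 260 to 352, 331, 376 and 352. The groups did not overlap. The log2 change was 0.36 (limma adjusted p = 0.0172) and missed the threshold without HU replicate 3 (0.0592). Snrpn, which encodes SmN, has 1 member probe set, with changes of 0.13, -0.00 and -0.17, none of them called. Another 4 probe sets are listed for both Snrpn and Snurf, which shares its transcript, and are not members. Of these, 1421063_s_at was called in wild type (0.64, limma adjusted p = 0.0129), with changes of -0.01 and -0.12 in Nfkb1-/- and Bcl3-/-.

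**Figure D3:**
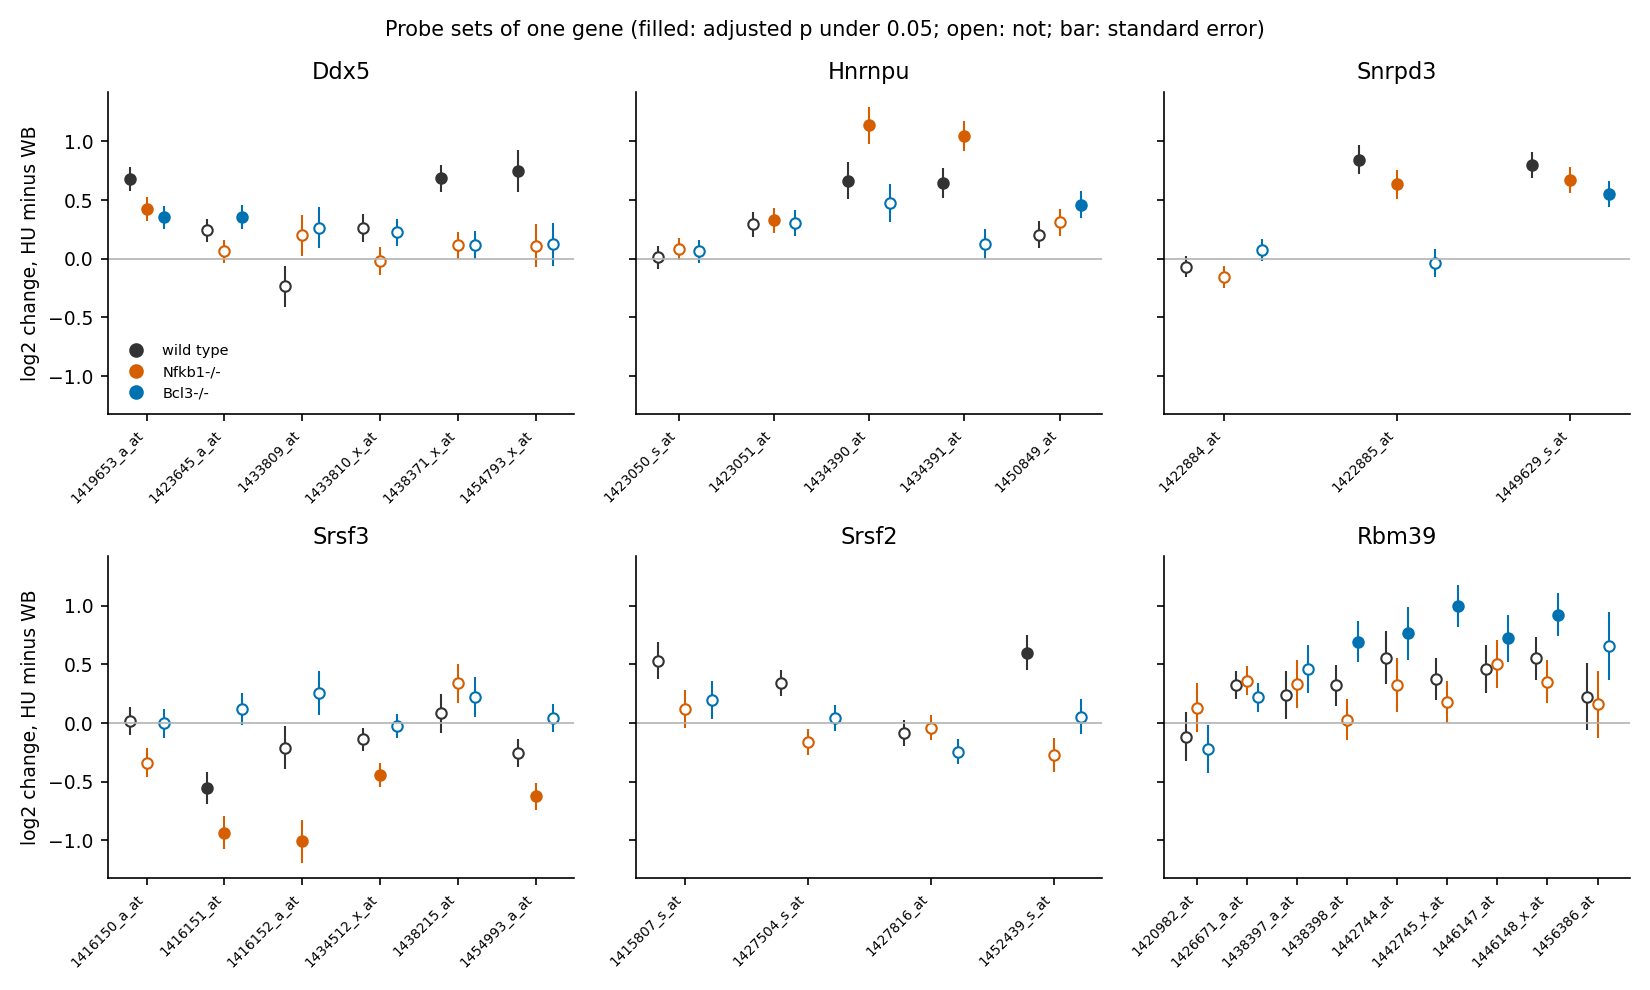
The log2 change with unloading ± SE is plotted for every tested probe set of Ddx5, Hnrnpu, Snrpd3, Srsf3, Srsf2 and Rbm39 in the 3 genotypes, filled where the limma adjusted p was under 0.05. Probe sets of 1 gene differ in call: 3 of 6 of Ddx5 were called in wild type, 4 of 6 of Srsf3 in Nfkb1-/- and 5 of 9 of Rbm39 in Bcl3-/-.

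Probe sets of 1 gene often differed in call. Of the 52 genes with more than 1 tested probe set, 11 had at least 1 called in wild type, 15 in Nfkb1-/- mice and 13 in Bcl3-/- mice. All probe sets of the gene were called for 0, 0 and 1 of these, the last being Srsf11. Probe sets of 1 gene can lie in different exons or ends of its transcripts, and which transcripts each one reads was not tested.

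Among the 53 tested Rbm probe sets, 2 were called higher and 2 lower in wild type, 4 higher and 1 lower in Nfkb1-/-, and 5 higher and 2 lower in Bcl3-/-. The shares called higher were 3.77%, 7.55% and 9.43%, near the 2.31%, 4.79% and 7.59% of all tested probe sets. Those called lower were 3.77%, 1.89% and 3.77%, against 1.66%, 6.59% and 2.81%. The medians were 0.10, 0.12 and 0.11. All 5 called higher in Bcl3-/- were of Rbm39, which encodes CAPER, a splicing factor and co-activator of nuclear receptors.

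Rbm39 (1442745_x_at) read 109, 132, 151 and 114 in WB and 267, 257, 279 and 204 in HU Bcl3-/- mice. The lowest HU mouse lay above the highest WB mouse, and the log2 change was 0.99 ± 0.18 (SE, limma adjusted p = 0.00147). In wild type it read 35.2, 31.2, 39.0 and 35.8 in WB and 44.0, 36.2, 48.8 and 55.2 in HU mice (0.37, adjusted p = 0.275). In Nfkb1-/- it read 36.5, 29.4, 36.2 and 48.7 in WB and 35.6, 59.6, 49.2 and 29.9 in HU mice (0.18, adjusted p = 0.613). The groups overlapped in both.

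A second Rbm39 probe set (1446148_x_at) read 84.6, 117, 127 and 130 in WB and 228, 242, 238 and 159 in HU Bcl3-/- mice (0.92, limma adjusted p = 0.00305). HU replicate 4 was the lowest of the 4 at both probe sets and lay above every WB mouse. Another (1442744_at) changed by 0.76 there (adjusted p = 0.0327). That call was lost without WB replicate 1 or 4 or HU replicate 1, 2 or 3 (up to 0.104). None of the 9 Rbm39 probe sets was called in wild type, where the changes ran from -0.12 to 0.56 and 8 were above 0, or in Nfkb1-/-, where all 9 were above 0 (0.03 to 0.50).

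Rbm26, which encodes a protein that takes part in nuclear RNA decay, rose at 1426803_at in wild type from 35.4, 35.7, 33.2 and 29.0 to 40.0, 43.3, 44.3 and 44.3. The groups did not overlap (0.37, limma adjusted p = 0.0234), but the call was lost without HU replicate 3 or 4 or WB replicate 3 or 4 (up to 0.0875). In Nfkb1-/- the change was 0.40 (adjusted p = 0.00565) and was kept without any 1 array. In Bcl3-/- it was 0.27 (adjusted p = 0.0618). Rbmx, which encodes hnRNP G, was called higher in wild type at 1426863_at (0.45, adjusted p = 0.0304). That call was lost without HU replicate 2, 3 or 4 or WB replicate 1 or 3 (up to 0.118), and its WB intensities of 8.96 to 12.7 were low.

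Rbm28, which encodes a protein of the spliceosome and nucleolus, was the member with the largest decrease in wild type. At 1452091_a_at it read 56.5, 31.9, 38.5 and 63.1 in WB and 26.0, 31.3, 25.1 and 32.8 in HU wild type mice. The WB mice were spread over a wide range and WB replicate 2 lay within the HU range. The log2 change was -0.68 ± 0.15 (SE, limma adjusted p = 0.0104, up to 0.0457 without 1 array), while another probe set of the gene changed by 0.40 and was not called. Rbms2, which encodes a single-stranded nucleic acid binding protein, was the other Rbm member called lower in wild type (-0.42, adjusted p = 0.0356). Its call was lost without HU replicate 3 or 4 or WB replicate 1, 2 or 3 (up to 0.138), and its changes of -0.34 and -0.21 in Nfkb1-/- and Bcl3-/- were not called.

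In Nfkb1-/-, Rbm25, which encodes a splicing regulator, was called at 2 of 4 probe sets. At 1428908_at it read 14.2, 14.0, 12.2 and 13.6 in WB and 14.2, 24.4, 32.4 and 15.0 in HU mice. HU replicates 2 and 3 were high and the other 2 lay near the WB mice. The change of 0.59 (limma adjusted p = 0.0206) was lost without HU replicate 2 or 3 or WB replicate 3 (up to 0.0907). Rbm12 was called lower (-0.53, adjusted p = 0.039), and lost without HU replicate 2 or 3 or WB replicate 1, 2 or 4 (up to 0.158).

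In Bcl3-/-, Rbm14, which encodes a nuclear co-activator, fell at 1450569_a_at from 172, 136, 122 and 131 to 107, 102, 101 and 100. All HU mice lay below all WB mice (-0.44 ± 0.10, SE, limma adjusted p = 0.00819), and all 4 Rbm14 probe sets had a change below 0 there. Rbm38, which encodes a regulator of mRNA stability, was the other one called lower (-0.54, adjusted p = 0.0406). Its WB mice ranged from 1115 to 2211 and overlapped the HU mice, and the call was lost without WB replicate 1 or 2 or HU replicate 1, 3 or 4 (up to 0.156).

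Among the 55 tested Ddx probe sets, 3 were called higher in wild type, 5 in Nfkb1-/- mice and 9 in Bcl3-/- mice. None was called lower in any genotype (0, 1 and 0 were lower at an unadjusted limma p under 0.05, and 0 by the methods' test). That test called 0, 238 and 16 of all 19294 probe sets lower, so its 0 cannot show that no Ddx member fell. The shares called higher were 5.45%, 9.09% and 16.4%, against 2.31%, 4.79% and 7.59% of all tested probe sets. Of the 55, 39 reached the minimum on wild type or Nfkb1-/- arrays. Among all 9722 such probe sets the shares were 3.99%, 7.43% and 12.6%. The medians were 0.09, 0.11 and 0.17. All 3 in wild type were of Ddx5, whereas the 9 in Bcl3-/- came from 7 genes.

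Ddx5 (1419653_a_at) read 370, 406, 350 and 324 in WB and 586, 517, 650 and 569 in HU wild type mice. It went from 462, 399, 408 and 426 to 515, 656, 633 and 486 in Nfkb1-/-, and from 1664, 1892, 2023 and 1875 to 2376, 2426, 2194 and 2506 in Bcl3-/-. The HU mice lay above the WB mice in every genotype. The log2 changes were 0.68, 0.42 and 0.35 (limma adjusted p = 0.000447, 0.00726 and 0.0274). The Bcl3-/- call was lost without WB replicate 1 or HU replicate 1, 2 or 4 (up to 0.0832), and the others were kept without any 1 array.

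At 1438371_x_at Ddx5 rose in wild type from 212, 199, 186 and 190 to 357, 288, 347 and 278 with no overlap (0.68, limma adjusted p = 0.00173). In the knockouts its groups overlapped, with changes of 0.11 and 0.12 (adjusted p = 0.63 and 0.562). The third called probe set (1454793_x_at) changed by 0.75 in wild type (adjusted p = 0.0197, lost without HU replicate 3 or WB replicate 3 or 4, up to 0.0784). For neither probe set was the difference between wild type and a knockout called. Of the 6 Ddx5 probe sets, 5 had a change above 0 in wild type, and the lowest was -0.23.

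Ddx20, which encodes gemin3 of the SMN complex that loads Sm proteins onto snRNA, rose in both knockouts. It read 140, 151, 115 and 113 in WB and 193, 181, 178 and 180 in HU Bcl3-/- mice, with no overlap (0.50, limma adjusted p = 0.00577). In Nfkb1-/- it went from 20.2, 26.7, 25.6 and 24.4 to 31.5, 36.5, 29.8 and 29.3, again with no overlap (0.39, adjusted p = 0.0213, lost without HU replicate 2 or WB replicate 1, up to 0.0995). In wild type the change was 0.11 (adjusted p = 0.675).

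Ddx18, which encodes a nucleolar helicase of ribosome assembly, rose in Bcl3-/- at 1416071_at from 279, 238, 269 and 243 to 357, 350, 379 and 334, with no overlap (0.47 ± 0.09, SE, limma adjusted p = 0.0018). It was called there at 2 of 3 probe sets and in no other genotype, where its highest changes were 0.05 and 0.21. Ddx10, another nucleolar helicase, rose in Nfkb1-/- (0.42, adjusted p = 0.0131, and 0.0501 without HU replicate 2). Its changes of 0.16 and 0.22 at that probe set in wild type and Bcl3-/- were not called.

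Responses were then compared between genotypes. Both comparisons use the 8 wild type arrays, so they are not independent of each other. No member had a response that differed between wild type and Nfkb1-/- by limma at an adjusted p under 0.05, where 0.176% of all probe sets did. At an unadjusted p under 0.05, 24 members had the larger response in wild type and 7 in Nfkb1-/-. Over all 19294 probe sets these counts were 1412 and 955, a lean to the same side. Without wild type WB replicate 2, 2 members were called at the adjusted threshold. They were Rbm28 (log2 difference -1.03, limma adjusted p = 0.0162) and Srsf2 (1.02, adjusted p = 0.0298).

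Between wild type and Bcl3-/-, 1 member differed, where 1.07% of all probe sets did. It was Snrpd3 at 1422885_at, whose wild type response was higher by 0.88 ± 0.17 (SE, limma adjusted p = 0.0151), and this was kept without any 1 of the 16 arrays (up to 0.0368). At the Snrpd3 probe set 1449629_s_at the difference was 0.25 (adjusted p = 0.512), so the difference was read at 1 of the 3 probe sets of the gene. At an unadjusted p under 0.05, 16 members had the larger response in wild type and 14 in Bcl3-/-. Over all 19294 probe sets these counts were 934 and 1687. The count of calls at the adjusted threshold was 2 without wild type WB replicate 2, with Rbm28 added (-0.81, adjusted p = 0.0394). It was also 2 without WB replicate 4, with Srsf3 added (-0.79, adjusted p = 0.0427).

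In WB muscle no member differed between Nfkb1-/- and wild type (0.902% of all probe sets did). At an unadjusted limma p under 0.05, 15 members were higher in Nfkb1-/- and 2 were lower, and the methods' test called 0. Over all probe sets, 805 were higher and 709 lower at the unadjusted threshold. Without wild type WB replicate 2, Hnrnpl was called lower in Nfkb1-/- (-0.80, limma adjusted p = 0.0399).

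The mean log2 intensity of the 161 members that reached the minimum on the wild type or Nfkb1-/- arrays was higher in every HU mouse of wild type and Bcl3-/- than in their WB mice. Relative to the WB mean, the wild type HU mice were at 0.20, 0.16, 0.16 and 0.15 on the log2 scale and the WB mice between -0.07 and 0.03. The Bcl3-/- HU mice were at 0.18, 0.15, 0.17 and 0.14 and the WB mice between -0.06 and 0.05. In Nfkb1-/- the HU mice split: replicates 2 and 3 were at 0.22 and 0.19, and replicates 1 and 4 at -0.04 and -0.03. The WB mice lay between -0.03 and 0.03, so replicate 1 was below all of them and replicate 4 within their range.

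All 9722 probe sets of the same kind averaged 0.04 and 0.04 in Nfkb1-/- HU replicates 2 and 3 and -0.08 and -0.07 in replicates 1 and 4. In Bcl3-/- they averaged 0.07, 0.05, 0.09 and 0.12 in the HU mice and -0.11 to 0.07 in the WB mice, and in wild type 0.04, 0.01, 0.03 and 0.05 in the HU mice and -0.10 to 0.04 in the WB mice. The mean over these 9722 probe sets thus lay above the WB mean in each HU mouse of wild type and Bcl3-/- as well. In both genotypes the HU and WB mice overlapped in this mean. The part of these shifts in the members' values was not tested. By family, the wild type HU means lay above all WB means for Hnrnp, Snrp, Rbm and Ddx but not for SR proteins. In Bcl3-/- this held for Hnrnp, Rbm and Ddx, and in Nfkb1-/- for Ddx only, where the lowest HU mean was 0.03 and the highest WB mean 0.02.

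**Figure D4:**
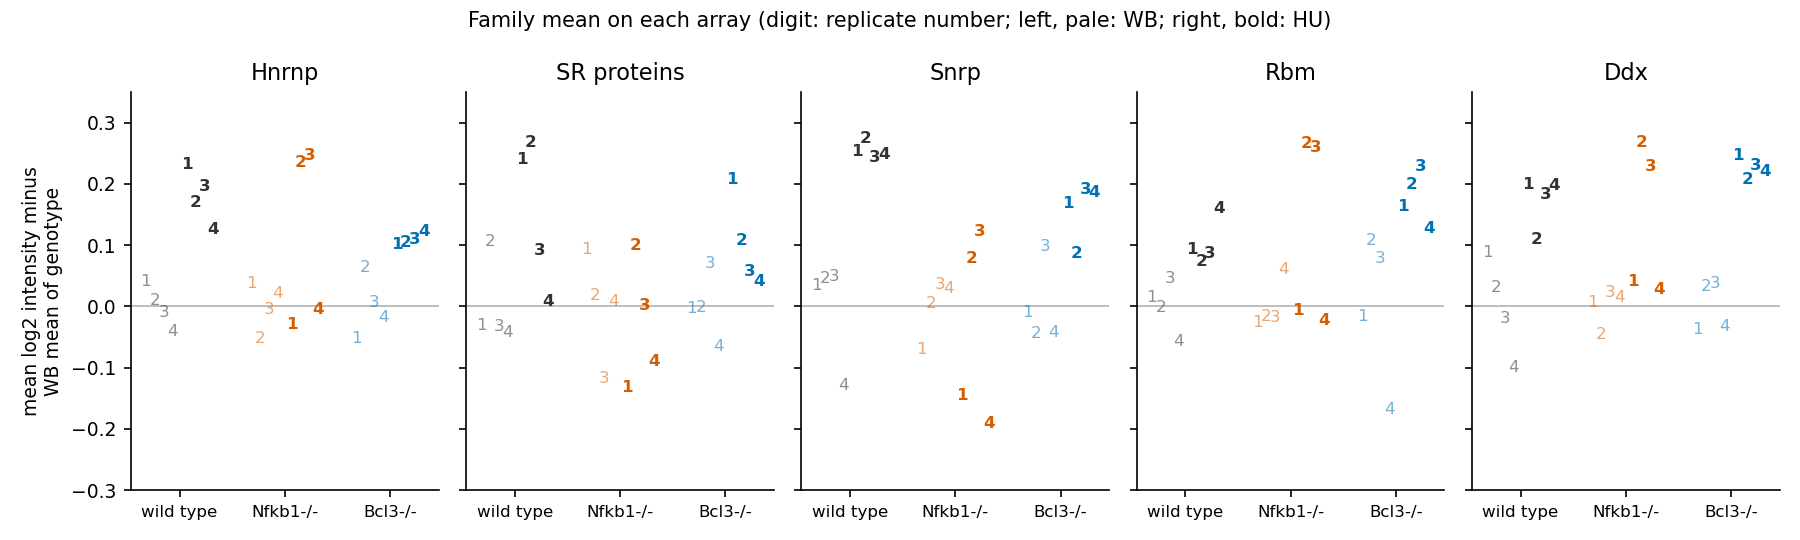
The mean log2 intensity over a family's members that reached the minimum on the wild type or Nfkb1-/- arrays, minus the WB mean of the genotype, is plotted for each array. Digits are replicate numbers, pale for WB and bold for HU. In Nfkb1-/- the HU replicates 2 and 3 lie above replicates 1 and 4, and over all 161 members these means were 0.22 and 0.19 against -0.04 and -0.03.

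Other genes of RNA processing, taken from written lists and represented by 1 probe set per gene, gave few calls in wild type. Few of all 19294 tested probe sets were called there either, 2.31% higher and 1.66% lower. Shares called higher were larger in the knockouts, 4.79% for Nfkb1-/- mice and 7.59% for Bcl3-/- mice. Those called lower were 6.59% and 2.81%. Among the 9722 that reached the minimum on wild type or Nfkb1-/- arrays, shares called higher were 3.99%, 7.43% and 12.6%, in that order of genotypes. No list was tested against these shares. Of 11 measured kinases and phosphatases that act on SR proteins, Clk4 was called higher (0.63, limma adjusted p = 0.0421) and none lower. In Nfkb1-/- 3 were higher, Clk1 among them (0.97, adjusted p = 0.000473), and 1 lower, and in Bcl3-/- none was called. Of 46 other splicing factors, 0 were called in wild type, 4 were higher and 1 lower in Nfkb1-/-, and 7 were higher and 1 lower in Bcl3-/-. The list medians were 0.24, 0.17 and 0.18 for the first list and 0.08, 0.05 and 0.11 for the second.

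Of 33 other RNA binding proteins, 1 was called higher in wild type, 4 in Nfkb1-/- (with 1 lower) and 8 in Bcl3-/-, with medians of 0.09, 0.10 and 0.14. The one in wild type was Ybx3, which encodes a cold shock domain protein (0.36, limma adjusted p = 0.0202). Of 26 genes of the exon junction, RNA export, decay and polyadenylation, of which 1 is also a member, wild type muscle had 1 higher and 1 lower. Pabpn1, which encodes the nuclear poly(A) binding protein, rose (0.68, adjusted p = 0.00402), and Pabpc4, which encodes a cytoplasmic one, fell (-0.33, adjusted p = 0.0398). The counts were 2 higher and 1 lower in Nfkb1-/- and 6 and 0 in Bcl3-/-, with medians of 0.12, -0.00 and 0.16.

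Heat shock genes were called lower more often than higher in each genotype. Of 18 measured, 0 were higher and 2 lower in wild type, 0 and 4 in Nfkb1-/-, and 1 and 6 in Bcl3-/-, with medians of -0.09, -0.42 and -0.33. Of all probe sets, 1.66%, 6.59% and 2.81% were called lower. The 2 called in wild type were the co-chaperones Bag3 (-0.54, limma adjusted p = 0.0105) and Dnaja1 (-0.50, adjusted p = 0.0239). The changes of the others in wild type lay on both sides of 0. Body and muscle temperature are not among the data used here.

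Markers of other cells also moved with unloading. Of 12 fibroblast and tendon markers, 3 were lower in wild type, among them Col1a2 (-0.79, limma adjusted p = 0.0368) and Tnmd (-0.75, adjusted p = 0.0155), and 7 in each knockout. Their summed intensity was 8520 to 10113 in WB and 6373 to 7030 in HU wild type mice, 8236 to 9641 and 3866 to 6963 in Nfkb1-/-, and 41038 to 53463 and 27494 to 39638 in Bcl3-/-. Of 16 macrophage markers, Lgals3 was called higher in wild type (2.02, adjusted p = 0.00173) and in Nfkb1-/- (1.70, adjusted p = 0.00217) and none in Bcl3-/-. Their summed intensity was 505 to 626 in WB and 614 to 1033 in HU wild type mice, 646 to 837 and 662 to 1175 in Nfkb1-/-, and 3820 to 4852 and 3640 to 4267 in Bcl3-/-. In WB wild type mice 9 of the 16 averaged under 20.

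Of 9 neutrophil markers, 0 were called in wild type and 2 in each knockout, S100a8 and S100a9. Their summed intensity went from between 50.5 and 64.5 in WB to between 54.7 and 131 in HU wild type mice, from 53.9 and 66.7 to 81.5 and 166 in Nfkb1-/-, and from 369 and 423 to 515 and 1020 in Bcl3-/-. All 9 averaged under 20 in WB wild type and Nfkb1-/- mice. Muscle fibre, lymphocyte, satellite cell, endothelial, adipocyte, nerve and erythroid markers had 0 calls in wild type. Many of them were near the floor. In WB wild type mice 5 of 5 lymphocyte, 11 of 13 satellite cell, 4 of 6 nerve, 3 of 6 adipocyte and 1 of 2 erythroid markers averaged under 20. In Nfkb1-/- 3 of 6 adipocyte markers were called higher (Adipoq, Retn and Cidec, median of the 6 0.42), with a summed intensity of 787 to 1097 in WB and 1033 to 1331 in HU mice. The nerve marker Mbp was called higher in both knockouts (0.84 and 0.96). Of the 15 muscle fibre markers, Myh7 was called higher in Nfkb1-/- (0.58), while in Bcl3-/- Myh2 (-1.13), Myh7 (-0.73) and Tnni1 (-1.18) were called lower and Actn3 (0.25) higher. Of 10 endothelial markers Emcn was lower in Nfkb1-/- and Egfl7 higher in Bcl3-/-, of 13 satellite cell markers Myf5 was higher and Cdk1 lower in Bcl3-/-, and no lymphocyte or erythroid marker was called. The part of other cells in the members' changes was not tested.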

How the data were processed

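Gastrocnemius and plantaris RNA of 24 mice was hybridized to Affymetrix 430A 2.0 arrays, 1 mouse per array. The authors read the scanner (GCOS) files into GenePattern and computed expression with RMA and quantile normalization, and the deposited values are linear intensities of 22690 probe sets. Groups were those of the sample labels, which give separate mice. Here the deposited intensities were converted to log2. A mean per group was fitted to 19294 probe sets (intensity of 20 or more on 4 of 24 arrays, control probe sets left out) by limma 3.58.1 under R 4.3.3 (lmFit with moderated variance), with 18 residual degrees of freedom. The threshold for a call was an adjusted p of 0.05 (Benjamini-Hochberg, over all tested probe sets). The fit was tested on simulated data.

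Symbols came from the platform annotation: 20380 probe sets had 1 gene, 691 several and 1555 none listed. Only probe sets with 1 gene were members, so Rbm3, which the plan had placed among the members, and 4 of the 5 Snrpn probe sets were left out and are given beside them. The members and lists were chosen with earlier results of these data known. Named were Cirbp, Rbm3, Tra2a and Tra2b, the members that the study's own list of p50 or Bcl-3 targets places in RNA processing or stress (Snrpd3, Ddx5, Rbm39, Hnrnpu, Srsf5, Snrpn and Srsf2), up to 2 called probe sets with the largest change per family, genotype and direction, up to 10 differences of response, up to 2 called genes of each list and direction in wild type, and 36 probe sets of 25 genes in all. The study chose its list on these arrays, so it is not independent evidence of direction. Srsf11, Hnrnpdl, Hnrnpm, Clk1, S100a8, S100a9, Adipoq, Retn, Cidec, Mbp, Myh2, Myh7, Tnni1, Actn3, Emcn, Egfl7, Myf5, Cdk1 and Hnrnpl were named after their values were seen.

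The alternatives were other filters, normalizations, fits and tests, each array left out in turn, and a two-sided parametric test per probe set like the one the study's methods name, called the methods' test here. It was run with unequal variances, which the methods do not state for the arrays, on all tested probe sets and without the study's filters on range, so its counts are not those of the study's own test. Promoter windows were those of RefSeq for GRCm38.p6.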

Additional observations from a re-analysis of the deposited data

Results flagged for a closer look

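Of the 94 groups of 4 arrays of called members that were checked, 5 held 1 array far from the other 3, with a gap that took most of the group's range (Dixon's test at the 95% level). Chance alone gives such a gap in about 1 of 20 groups.

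Ddx20 read 193.318 in Bcl3-/- HU replicate 1 and 178 to 181 in the other 3 HU mice. Rbm12 read 11.029 in Nfkb1-/- HU replicate 3 and 15.3 to 16.1 in the others. Rbm39 (1446148_x_at) read 159.055 in Bcl3-/- HU replicate 4 and 228 to 242 in the others. Srsf3 (1416152_a_at) read 19.5999 in Nfkb1-/- WB replicate 3 and 27.3 to 29.2 in the others. Tra2b (1427432_a_at) read 96.3522 in wild type WB replicate 4 and 108 to 110 in the others.

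The response of Snrpd3 at 1422885_at differed between genotypes, by 0.8792 on the log2 scale between wild type and Bcl3-/- in the test of the difference itself (limma adjusted p = 0.0151), and it did so at 1 of 3 probe sets of the gene.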

How the results depend on the processing

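In wild type, the 16 members called higher became 7 when only the groups compared were fitted, 30 with array weights and 8 with 1 probe set per gene, and the 3 called lower became 0 with only the groups compared, 5 with array weights and 1 with log2 of the intensity plus 16. Calls over all probe sets moved as well. Those higher were 3.43% of members against 0.788% of all with only the groups compared, and 14.7% against 6% with array weights. Those lower were 0% against 0.523%, 2.45% against 5.58%, and 0.49% against 1.15% in the 3 settings named. In Nfkb1-/-, the 22 called higher became 48 with array weights and 12 with 1 probe set per gene, and the 6 called lower became 10 with the filter within the run, 11 with array weights and 2 with 1 probe set per gene. With array weights, 23.5% of members and 10.2% of all probe sets were higher, and 5.39% and 9.69% lower. With the filter within the run, 6.21% and 13.4% were lower. In Bcl3-/-, the 27 called higher became 17 with only the groups compared, 48 with log2 of the intensity plus 16 and 12 with 1 probe set per gene, and the 2 called lower became 1, 5, 6 and 1 with only the groups compared, quantile normalization again, log2 of the intensity plus 16 and 1 probe set per gene. With only the groups compared, 8.33% of members and 4.14% of all probe sets were higher, and 0.49% and 1.25% lower. With the intensity plus 16 these were 23.5% and 14.9%, and 2.94% and 8.57%. With quantile normalization again, 2.45% and 4.79% were lower. The methods' test with Benjamini-Hochberg adjustment called 0 members higher and 0 lower in wild type, 2 and 1 in Nfkb1-/-, and 0 and 0 in Bcl3-/-. With q-values it called 0 and 0, 6 and 3, and 7 and 0. Of all 19294 probe sets it called 0 and 0, 69 and 238, and 68 and 16 with the first adjustment. With q-values these counts were 0 and 0, 256 and 598, and 201 and 48. The difference in response from Nfkb1-/- was called for 1 member with the filter within the run (Srsf2) and 1 with array weights (Rbm12), that from Bcl3-/- for 2 with array weights, 2 with quantile normalization again, 4 with the intensity plus 16 and 0 with 1 probe set per gene, and that between WB Nfkb1-/- and wild type for 2 with array weights (Hnrnph2 and Rbm28).

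Leaving out each array in turn gave 9 to 15 members higher and 1 to 4 lower in wild type, 12 to 29 and 4 to 7 in Nfkb1-/-, and 16 to 28 and 1 to 3 in Bcl3-/-. It gave 0 to 2 differences from the Nfkb1-/- response, 1 to 2 from the Bcl3-/- response, and 0 to 1 between WB Nfkb1-/- and wild type. Members called higher were 4.41% to 7.35%, 5.88% to 14.2% and 7.84% to 13.7% in the 3 genotypes. Of all probe sets, 1.41% to 3.33%, 2.7% to 5.7% and 4.01% to 9.07% were. Members called lower were 0.49% to 1.96%, 1.96% to 3.43% and 0.49% to 1.47%. Of all probe sets, 0.731% to 2.02%, 4.2% to 5.77% and 1.29% to 4.18% were.

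Of the 48 called changes of named probe sets, 28 were kept in every fit without 1 array and none changed direction under any alternative run. With Benjamini-Hochberg adjustment, the methods' test kept 2 of 47 and lost all 17 in wild type, its q-values kept 10 of 47, and fits of only the groups compared kept 32 of 48. In wild type the methods' test called 0 of all 19294 probe sets with either adjustment, so no call there could be kept. The other settings kept 41 or more of 48, or 44 of 44 with the filter within the run. Under the methods' test, the cause of the loss was not tested.

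With the replicate number as a block, 15 members were called higher and 2 lower in wild type, 21 and 6 in Nfkb1-/-, and 28 and 2 in Bcl3-/-, and of the named calls Rbms2 was lost and Cirbp in Bcl3-/- was gained (adjusted p = 0.044). The shares called higher were then 7.35%, 10.3% and 13.7%, against 2.08%, 4.59% and 7.16% of all probe sets. Those called lower were 0.98%, 2.94% and 0.98%, against 1.39%, 6.11% and 2.66%. Cirbp was also called in Bcl3-/- with only the groups compared, array weights, the intensity plus 16 and the methods' q-values (adjusted p = 0.0089 to 0.0472), and in Nfkb1-/- with the filter within the run, only the groups compared and array weights (0.0169 to 0.0453). The deviations of same-numbered WB and HU mice from their group means correlated between -0.17 and 0.22. Apart from the replicate number, nothing in the sample titles pairs the mice. These correlations cannot show whether same-numbered mice shared a batch or an order of processing.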
